A study of Mus musculus with 2 samples.

Results

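The epidermal growth factor (EGF) receptor family, its ligands and the receptor of hepatocyte growth factor (HGF) were examined in AML12 cells, a nontumorigenic mouse hepatocyte line. The 10 genes were taken by name from the joint expression table of 21145 genes: the receptors Egfr, Erbb2, Erbb3 and Met, the ligands Tgfa, Hbegf, Areg, Ereg and Btc, and the receptor inhibitor Errfi1. There were 2 libraries, 1 from cells that stably carried a lentivirus for the long noncoding RNA H19 and 1 from cells with the control virus. Both lines have the strain entry CD1/MT42, were at passages 14 to 16, had been selected with 0.5 mg/ml puromycin and were kept in DMEM with 10% serum and 0.25 mg/ml puromycin. The parent line had been grown with insulin, transferrin, selenite and 40 ng/ml dexamethasone. Whether each line was 1 clone or a pool is not stated in those labels. AML12 cells come from mice with a human TGF-alpha transgene under a metallothionein promoter, and no value here shows how far either library expressed it.

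In this family a ligand is made as a membrane-anchored precursor, cut loose by metalloproteinases of the ADAM group, and bound by EGFR or a relative on the same or a neighbouring cell. Bound receptors pair, phosphorylate each other and signal through RAS and ERK and through PI3 kinase. In liver, EGFR and MET are the classical growth factor receptors of hepatocytes during regeneration, and amphiregulin, the product of Areg, is known to be induced by injury.

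With 1 library per group there is no replicate error and no test was run, so every difference describes these 2 libraries. Levels are FPKM (fragments counted per kilobase of transcript and set relative to library size), which can be compared between genes. Differences are those of log2(FPKM + 1), the H19 virus library minus the control library, a scale that understates differences of low genes. A gene was called measured at a mean of at least 1 FPKM over both libraries and past the fold rule at a log2 difference of at least 1 in size.

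The ligands Areg, Ereg and Btc were nearly or just over 2-fold higher in the H19 virus library, and they are the members that lie together on chromosome 5. The ligands Tgfa and Hbegf, the receptors Egfr and Met, and the inhibitor Errfi1 differed by less than 0.2 on the log2 scale. The low receptor Erbb3 was at 0.545 of its control level. All 10 genes were measured, 6 were higher and 4 lower, and their median log2 difference was 0.08, as was that of all 11674 measured genes. Of those 11674 genes, 6877 were higher and 4797 lower. Areg was the only member past the 2-fold rule, which 2.71% of all measured genes passed in either direction, 1.14% as higher and 1.57% as lower. By level, that share was 4.33% at a mean FPKM from 1 to 3, 3.41% from 3 to 10, 2.04% from 10 to 30, 1.84% from 30 to 100 and 2.28% above. By a 1.5-fold rule 3 members were higher, where 8.99% of measured genes were, and 1 member was lower, where 6.21% were.

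**Figure D1:**
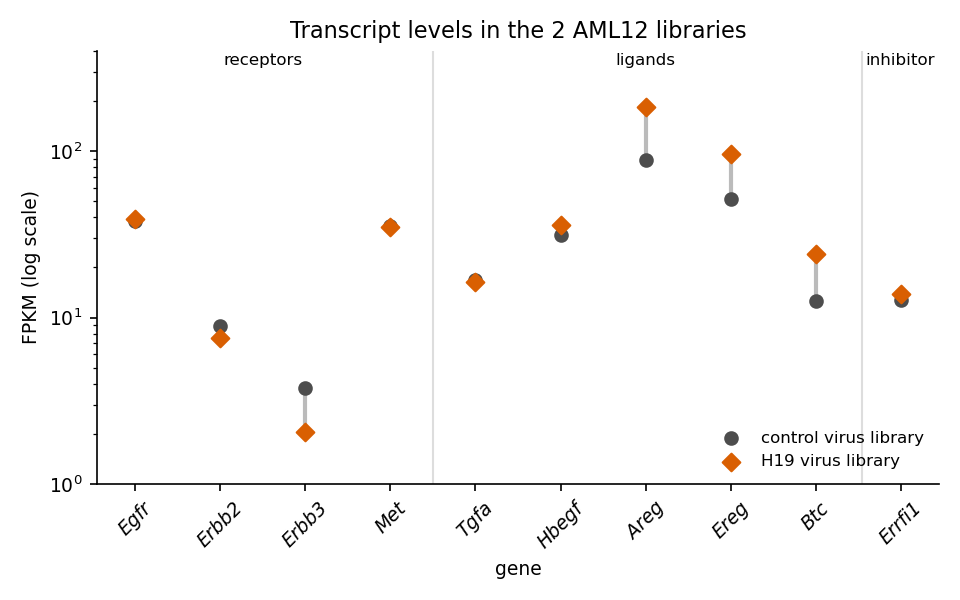
FPKM on a log scale of each of the 10 genes in the control virus library (grey circles) and the H19 virus library (orange diamonds), 1 library each with no error bars. The symbols of Areg, Ereg, Btc and Erbb3 stand apart, from 88.5 to 183 FPKM for Areg and from 3.78 to 2.06 FPKM for Erbb3, while those of Egfr, Met and Tgfa overlap.

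Before the genes are taken in turn, the libraries had these properties. For H19 itself the table lists 0 FPKM in the control and 4.72 FPKM under the H19 virus, in the direction of the labels. Genes listed above 0 numbered 19595 and 19063. No read totals were at hand. If the usual lowest step of FPKM times exonic length stands for 1 fragment, the libraries held about 24100000 and 22500000 fragments, and the members would rest on between 278 (Erbb3 in the H19 virus library) and 10377 (Egfr in the control) fragments. Markers of mature hepatocytes summed to 186 and 149 FPKM, of which Apob gave 108 and 104 FPKM and Hnf4a 74.4 and 44.4 FPKM. Of the 12 listed only these and Serpina1a, at 2.12 and 0.192 FPKM, were measured. The defining marker Alb was at 0.990 and 0.178 FPKM and Ttr at 0.785 and 0.290 FPKM, with Cps1 and Fgb at 0 in the control. Bile duct and progenitor markers summed to 818 and 463 FPKM, with 4 of 6 measured and Epcam near 0. Macrophage and leukocyte markers summed to 130 and 64.4 FPKM, of which Cd14, also made by hepatocytes, gave 125 and 62.4 FPKM. Of the 7 listed only Cd14, Cd68 (2.75 and 0.928 FPKM) and Lyz2 (1.68 and 0.412 FPKM) were measured. All 3 were lower in the H19 virus library. Ptprc was at 0.237 and 0.380 FPKM and Itgam at 0.0587 and 0 FPKM. Stellate and fibroblast markers summed to 3.84 and 1.22 FPKM and endothelial markers to 0.478 and 0.323 FPKM. The part of these shifts in the ligand values was not tested. In bulk RNA, fewer cells of a type and less RNA per cell cannot be told apart.

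Among the receptors, Egfr, which binds all 5 ligands named here, was the highest of the 4 and nearly level between libraries. Egfr (ENSMUSG00000020122, plus strand of chromosome 11, 16752203 to 16918158, GRCm38) was at 38.0 FPKM in the control and 39.3 FPKM in the H19 virus library. Its log2 difference was 0.05, with a sign that turned under each of 3 other scalings (down to -0.0659). Met (ENSMUSG00000009376, plus strand of chromosome 6, 17463800 to 17573980), the receptor of HGF, was at 35.5 and 35.1 FPKM (log2 difference -0.01). Egfr and Met thus stood within 1.12-fold of each other in either library, and of the 2228 measured genes with a mean FPKM from 30 to 100, 89.8% differed between libraries at least as much as Egfr and 97.6% at least as much as Met. Among the 17 measured receptor tyrosine kinases of the lists used here, Egfr ranked 3 in both libraries and Met 4 and 5, behind Axl and Epha2. In the H19 virus library Ryk, at 37.7 FPKM, also stood above Met. Those lists do not hold every receptor tyrosine kinase.

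The other receptors were lower in level. Erbb2 (ENSMUSG00000062312, plus strand of chromosome 11, 98412470 to 98437716), which has no known ligand and is the preferred partner of its relatives, was at 8.84 and 7.51 FPKM (log2 difference -0.21). Its exons overlap those of Mien1 on the other strand, and no source used here states whether counting used strand, so reads of the pair cannot be told apart. Erbb3 (ENSMUSG00000018166, minus strand of chromosome 10, 128567523 to 128589652), a neuregulin receptor with little kinase activity of its own, was the lowest member at 3.78 and 2.06 FPKM. Its log2 difference of -0.64 is the most negative among the 10. Of the 1640 measured genes with a mean FPKM from 1 to 3, 15.3% differed at least as much, so a shift of this size was common at that level. With a pseudocount of 0.01 the difference was -0.873, still under the 2-fold rule. The ratio of Egfr to Erbb3 was 10.1 in the control and 19.1 in the H19 virus library, a ratio that no scaling between libraries can move.

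**Figure D2:**
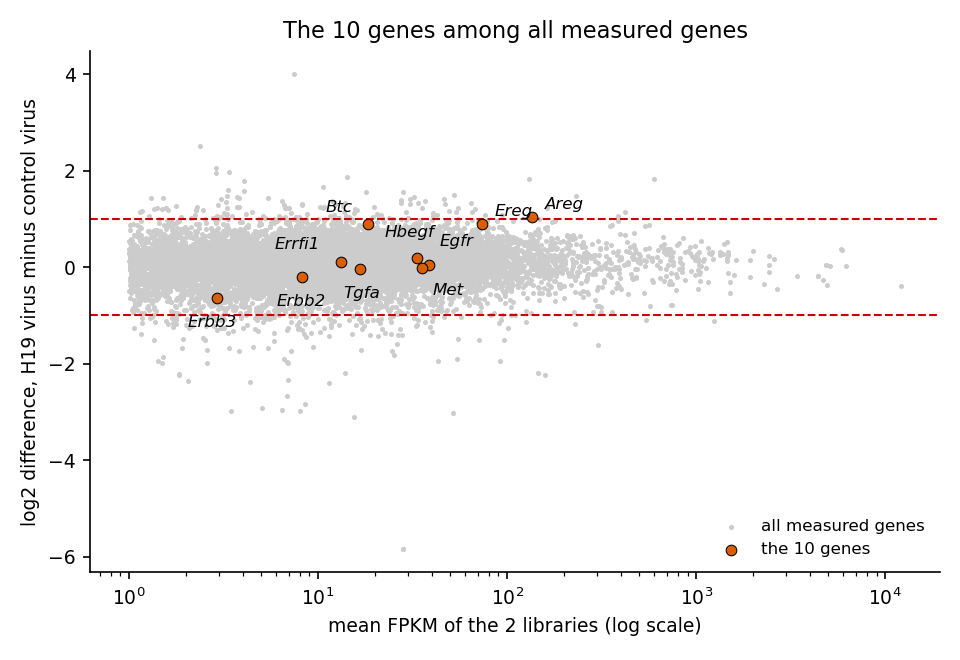
Log2 difference (H19 virus minus control virus library) against mean FPKM on a log scale, with each of the 11674 measured genes as a grey point, the 10 members in orange and dashed lines at a log2 difference of -1 and 1. Areg lies just above the upper line at 1.04, Ereg and Btc just under it, and the other 7 between -0.64 and 0.19.

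Of the ligands, Areg was the highest member in both libraries. Areg (ENSMUSG00000029378, plus strand of chromosome 5, 91139599 to 91148432) encodes amphiregulin, an EGFR ligand of low affinity. It was at 88.5 FPKM in the control and 183 FPKM in the H19 virus library, a 2.07-fold ratio and a log2 difference of 1.04. Only 108 of the 11674 measured genes had a higher difference (0.925%). Of 702 measured genes with a mean of at least 100 FPKM, 2.28% differed at least as much. Areg is the only member in the authors' deposited table of differing genes, which lists 2.65% of the genes in the joint table. The smallest finite log2 ratio listed there was 1.00 in size. Members under 2-fold, Ereg and Btc among them, would thus be absent whatever their q-value. Areg has a log2 ratio of 1.05 and a q-value of 0.00189 in the authors' deposited table. No source used here names the test behind that q-value, and 1 library per line carries no spread between cultures. The call of Areg sits on the edge of the rule: its log2 difference was 0.961 with the median of all genes set to 0, 0.982 as TPM and 0.927 with equal upper quartiles.

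Ereg and Btc showed differences of like size. Ereg (ENSMUSG00000029377, plus strand of chromosome 5, 91074622 to 91093646) encodes epiregulin, which binds EGFR and ErbB4. It was at 51.3 and 96.1 FPKM, a 1.87-fold ratio and a log2 difference of 0.89. Btc (ENSMUSG00000082361, minus strand of chromosome 5, 91357261 to 91402994) encodes betacellulin, which also binds both receptors. It was at 12.6 and 24.0 FPKM, a 1.91-fold ratio and a log2 difference of 0.89. Both were under the 2-fold rule in every setting tried, and few measured genes had a higher difference (1.996% for Ereg and 2.07% for Btc). The proportions among the 3 ligands were nearly kept, with 1.73 and 1.91 Areg transcripts per Ereg transcript and 4.09 and 3.996 Ereg transcripts per Btc transcript in the control and the H19 virus library. Against Egfr, Areg moved from 2.33 to 4.66 transcripts per receptor transcript, Ereg from 1.349 to 2.44 and Btc from 0.330 to 0.612.

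Tgfa and Hbegf were close to level. Tgfa (ENSMUSG00000029999, plus strand of chromosome 6, 86195223 to 86275719) encodes TGF-alpha, a high-affinity EGFR ligand. The mouse gene was at 16.8 and 16.4 FPKM (log2 difference -0.03). Its exons overlap those of Gm43917, and no source used here states how reads in the shared bases were assigned. The table has no separate row for a human TGFA transcript, and whether reads of the transgene aligned to mouse Tgfa was not tested. The metallothionein genes Mt1 and Mt2, whose family supplied the promoter of that transgene, were at 316 and 138 FPKM and at 146 and 36.9 FPKM, log2 differences of -1.19 and -1.95, and the part of that promoter in the ligand values was not tested. Hbegf (ENSMUSG00000024486, minus strand of chromosome 18, 36504927 to 36515805) encodes heparin-binding EGF-like growth factor and was at 31.3 and 35.8 FPKM (log2 difference 0.19). Together the 5 ligands summed to 200.5 FPKM in the control and 356 FPKM in the H19 virus library, of which the chromosome 5 ligands made up 152 and 303 FPKM. Areg alone was 44.2% and 51.5% of the ligand sum, and Tgfa 8.37% and 4.61%. The 4 receptors summed to 86.1 and 84.0 FPKM.

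**Figure D3:**
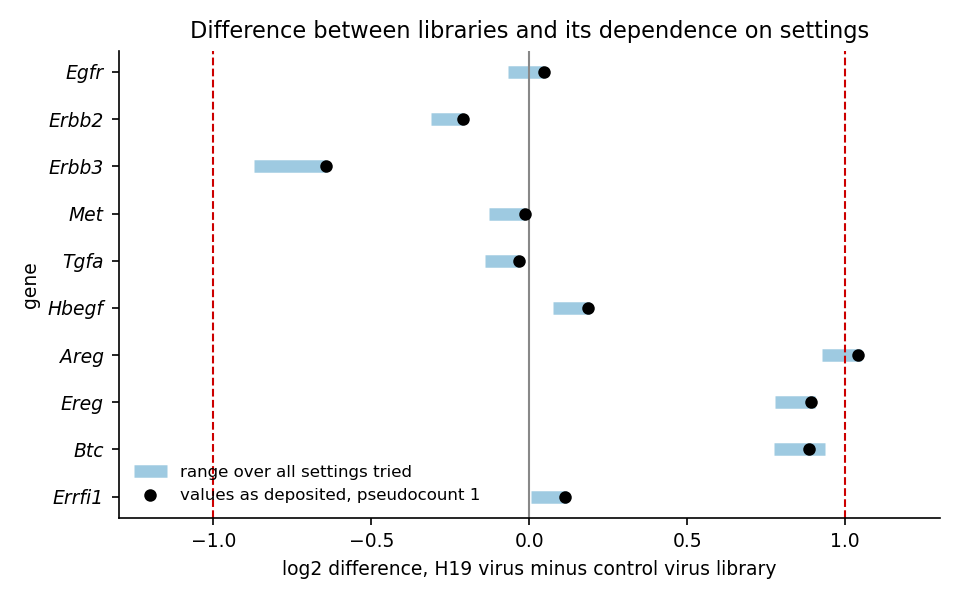
Log2 difference of each of the 10 genes, the H19 virus minus the control virus library, with the values as deposited as black points and the range over the other settings tried as blue bars (dashed lines at -1 and 1). Areg runs from 0.927 to 1.05 across the upper line, the bars of Ereg (0.778 to 0.905) and Btc (0.775 to 0.937) stay under it, and that of Egfr crosses 0.

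Errfi1 (ENSMUSG00000028967, plus strand of chromosome 4, 150853919 to 150868892) encodes MIG6, which is induced by EGFR signalling and binds and blocks the EGFR kinase domain. It was at 12.7 and 13.8 FPKM (log2 difference 0.11), and 75.8% of the 3963 measured genes with a mean FPKM from 10 to 30 differed at least as much. Per Egfr transcript its level was 0.334 and 0.351. The order of levels in the control library ran from Areg through Ereg, Egfr, Met, Hbegf, Tgfa, Errfi1, Btc and Erbb2 to Erbb3. In the H19 virus library Btc stood at rank 6 instead of 8, above Tgfa and Errfi1, and Hbegf stood just above Met. The order of Egfr, Met and Hbegf and that of Tgfa, Errfi1 and Btc rest on small differences with no error to weigh them by.

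The start regions of Areg and Btc are shown beside those of Tgfa and Errfi1, which were level between libraries, so that the letters can be compared. RefSeq windows (GRCm38.p6) of 250 bases before to 50 after the start were used for 7 of the 10 members. Those of Areg (chr5:91139349-91139648, plus strand), Btc (chr5:91402945-91403244, minus strand), Tgfa (chr6:86194972-86195271, plus strand) and the second start of Errfi1 (chr4:150854820-150855119, plus strand) read, 5′ to 3′ on the strand of the gene, with capitals for matches to the motifs named after them:
Areg: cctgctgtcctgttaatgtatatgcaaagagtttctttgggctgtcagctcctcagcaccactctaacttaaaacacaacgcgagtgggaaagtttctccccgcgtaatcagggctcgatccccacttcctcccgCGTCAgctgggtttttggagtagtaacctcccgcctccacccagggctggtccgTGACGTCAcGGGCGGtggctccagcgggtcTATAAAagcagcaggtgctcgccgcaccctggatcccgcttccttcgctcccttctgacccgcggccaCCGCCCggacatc
Btc: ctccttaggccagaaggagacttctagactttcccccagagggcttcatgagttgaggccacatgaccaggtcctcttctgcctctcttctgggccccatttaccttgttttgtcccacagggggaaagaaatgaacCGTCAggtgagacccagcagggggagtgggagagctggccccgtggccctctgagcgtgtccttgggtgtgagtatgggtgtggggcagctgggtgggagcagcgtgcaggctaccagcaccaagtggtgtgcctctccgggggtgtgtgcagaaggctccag
Tgfa: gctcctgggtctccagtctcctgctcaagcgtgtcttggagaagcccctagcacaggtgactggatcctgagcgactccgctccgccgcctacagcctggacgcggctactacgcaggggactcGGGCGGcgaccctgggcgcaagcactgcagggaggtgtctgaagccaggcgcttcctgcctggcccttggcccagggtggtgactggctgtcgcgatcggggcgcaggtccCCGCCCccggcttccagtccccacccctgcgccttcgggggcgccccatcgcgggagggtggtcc
Errfi1: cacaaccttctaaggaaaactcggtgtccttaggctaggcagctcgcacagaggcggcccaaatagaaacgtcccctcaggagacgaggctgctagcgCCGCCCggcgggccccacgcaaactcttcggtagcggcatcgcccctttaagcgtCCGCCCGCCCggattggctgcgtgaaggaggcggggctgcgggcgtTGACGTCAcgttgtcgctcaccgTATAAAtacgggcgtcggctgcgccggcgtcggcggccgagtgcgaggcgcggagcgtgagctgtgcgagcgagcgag

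The motifs searched on both strands were the cAMP response element TGACGTCA, its shorter core TGACG, the AP-1 motif TGANTCA, the TATA box TATAAA, the GC box GGGCGG and the TEAD motif GGAATG, and each full cAMP response element also holds that core on either strand. Areg had the full element starting 61 bases before its start, another copy of the core 115 bases before, a TATA box at 31 bases before, and GC boxes at 52 before and 37 after. Errfi1 had the same pair, the element at 51 and the TATA box at 28 bases before its start, with 3 GC boxes. The full element stood in 1.79% of 32851 windows of 300 bases and the TATA box in 13.6%. Btc had the core alone, 113 bases before its start, as 20.8% of windows had in some form, and Tgfa had 2 GC boxes, found in 35.7% of windows. No AP-1 match (7.81% of windows) or TEAD match (14.7%) lay in these 4 windows. The first start of Errfi1, not shown, had a TEAD match 65 bases before it and none of the other motifs. Windows of Egfr, Erbb2 and Met, also not shown, were searched too. Erbb2 had the core 171 bases and a TEAD match 88 bases before its start. Met had an AP-1 match 54 bases before its start and GC boxes, and Egfr had a GC box alone. Of the ligands with the larger differences, Areg had the full element in its window and Btc did not, and the window of Ereg was not analysed here. A match is a description of letters and not a bound site.

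Areg, Ereg and Btc lie in a cluster on chromosome 5. Ereg starts 64.98 kb before Areg, and Btc 263 kb beyond it on the opposite strand. The part of this place in their values was not tested. Within 1 Mb of the Areg start 20 other genes were measured, 14 higher and 6 lower, with a median log2 difference of 0.17. Among all measured genes 6877 were higher and 4797 lower, with a median of 0.08. Epgn, the epigen gene and the fourth EGF-like ligand of the cluster, was too low to be measured at 0.184 and 0.0876 FPKM. Of the 20, 1 was 2-fold higher and 2 were 2-fold lower, where 1.14% and 1.57% of all measured genes were. The higher one was the antisense gene Gm42532 (picked out by its value), at 1.51 and 5.91 FPKM. It shares 141 of its 408 exonic bases with Ereg, which has 4128, and without a stated use of strand the reads in those 141 bases cannot be told apart. The genes 2-fold lower were the chemokines Cxcl5 at 1706 and 793 FPKM and Ppbp at 6.88 and 2.67 FPKM. Between these and Epgn lie Cxcl3 at 46.7 and 64.3 FPKM, Cxcl1 at 950.2 and 785 FPKM, Cxcl2 at 3.26 and 3.20 FPKM and the folate enzyme gene Mthfd2l at 23.3 and 34.7 FPKM, and the first measured gene beyond Btc was Parm1 at 113 and 100.2 FPKM, all picked with values known. Neighbours thus went both ways.

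**Figure D4:**
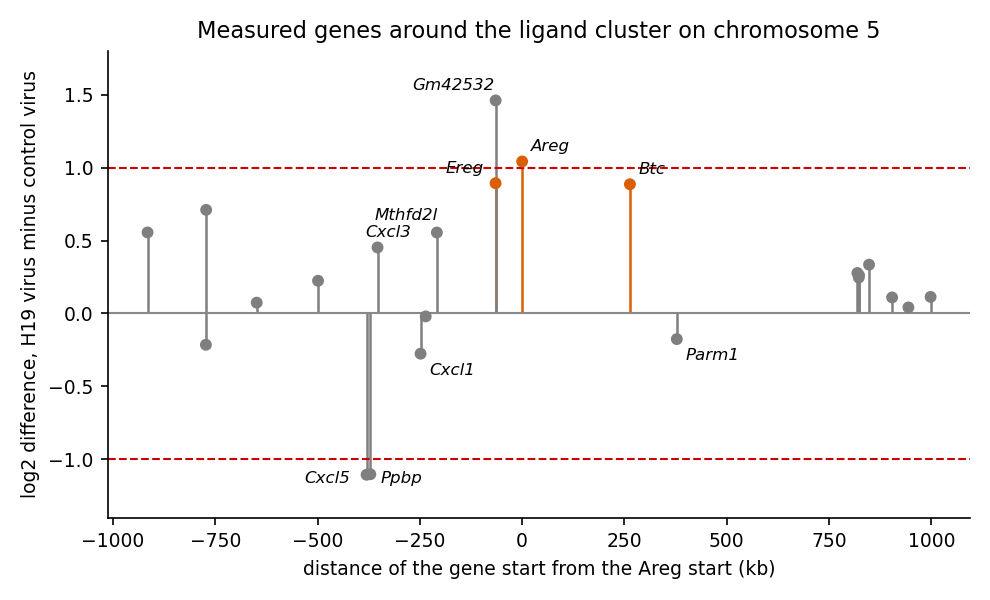
Log2 difference, the H19 virus minus the control virus library, of the 23 measured genes within 1 Mb of the Areg start, by distance of their start from it in kb, with the 3 ligands in orange and dashed lines at -1 and 1. Ereg, Areg and Btc stand at 0.89 to 1.04, Gm42532 at 1.46, and Cxcl5 and Ppbp at -1.10.

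The rest of the pathway was taken from 8 lists with 87 measured genes. Of these 43 were higher and 44 lower, where 6877 of all measured genes were higher and 4797 lower. The median log2 difference of the 87 was -0.02, where that of all measured genes was 0.08. None was 2-fold higher and 2 were 2-fold lower, together 2.30%, near the 2.71% of all measured genes. Among the other ligands and receptors, 2 of 10 were measured: the neuregulin gene Nrg1, a ligand of Erbb3, at 44.7 and 47.4 FPKM, and Mst1, which encodes macrophage-stimulating protein, at 16.4 and 22.9 FPKM. Hgf, the ligand of Met, was listed at 0 and 0.0167 FPKM, and Egf was at 0.272 and 0.535 FPKM. Erbb4 was not analysed here.

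None of the 10 measured sheddases and regulators of ligand release passed the 2-fold rule (median -0.14). Adam17, which releases amphiregulin, TGF-alpha and other ligands, was at 17.3 and 13.4 FPKM, Adam8 at 9.67 and 11.9 FPKM, Adam15 at 21.4 and 18.2 FPKM and the rhomboid protease gene Rhbdl2 at 4.98 and 4.24 FPKM. Adam10, which releases betacellulin and was added with its value known, was at 37.4 and 32.8 FPKM. No 2-fold difference was found either among 15 adaptors and early effectors (median -0.08). There the adaptor Shc1 was at 82.5 and 50.3 FPKM, Grb7 at 22.2 and 15.5 FPKM, Gab2 at 8.50 and 5.82 FPKM and phospholipase Plcg1 at 28.5 and 20.3 FPKM.

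The 12 RAS to ERK kinase genes (median 0.10) had 9 higher and 3 lower members and none past the 2-fold rule. Among all measured genes (median 0.08) 6877 were higher and 4797 lower. Mapk3, which encodes ERK1, was at 62.8 and 37.8 FPKM and the scaffold Ksr1 at 4.60 and 3.68 FPKM. The 10 PI3 kinase and AKT genes were split 5 and 5 (median -0.01), with the catalytic subunits Pik3ca at 9.99 and 8.04 FPKM and Pik3cb at 11.5 and 15.7 FPKM, the regulatory subunit Pik3r1 at 10.8 and 12.5 FPKM and Akt2 at 30.2 and 35.4 FPKM.

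Of 17 measured negative regulators of receptors none passed the 2-fold rule (median -0.08). Lrig1, a membrane protein that promotes receptor degradation, was at 23.7 and 17.6 FPKM and the ubiquitin ligase Cbl at 9.89 and 7.79 FPKM. Sh3kbp1, an endocytic partner of CBL, was at 8.77 and 15.4 FPKM and Socs4 at 8.63 and 11.2 FPKM. Of 7 measured genes of HGF activation and MET partners 5 were lower, and none passed the rule (median -0.44). All measured genes had a median of 0.08, with 6877 higher and 4797 lower. The plexin Plxnb1, a MET partner, was at 8.40 and 4.18 FPKM, and only the pseudocount kept it under the rule: the authors' deposited table of differences lists it with a log2 ratio of -1.01 and a q-value of 0.00607. Also lower were the co-receptor Cd44 at 105 and 70.3 FPKM, and Spint2, an inhibitor of HGF activation, at 62.8 and 42.8 FPKM. The plasminogen activator Plau was at 2.86 and 4.75 FPKM.

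The 14 ERK-responsive targets went both ways, 8 higher and 6 lower (median 0.09), with 2 past the 2-fold rule, both lower. Among all measured genes (median 0.08) 6877 were higher and 4797 lower. By the 2-fold rule 1.14% of all measured genes were higher and 1.57% lower. The 2 targets past the rule were the immediate early genes Fos at 12.3 and 0.696 FPKM and Egr1 at 12.2 and 1.63 FPKM. Fosl1, a later member of the FOS family, was at 27.9 and 50.8 FPKM, and Dusp5, a phosphatase of ERK, at 7.24 and 14.1 FPKM. With a pseudocount of 0.1 or 0.01 the feedback inhibitor Spry4, picked with its value known, also passed, as higher, at 1.62 and 3.51 FPKM. Protein and phosphorylation were not measured.

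**Figure D5:**
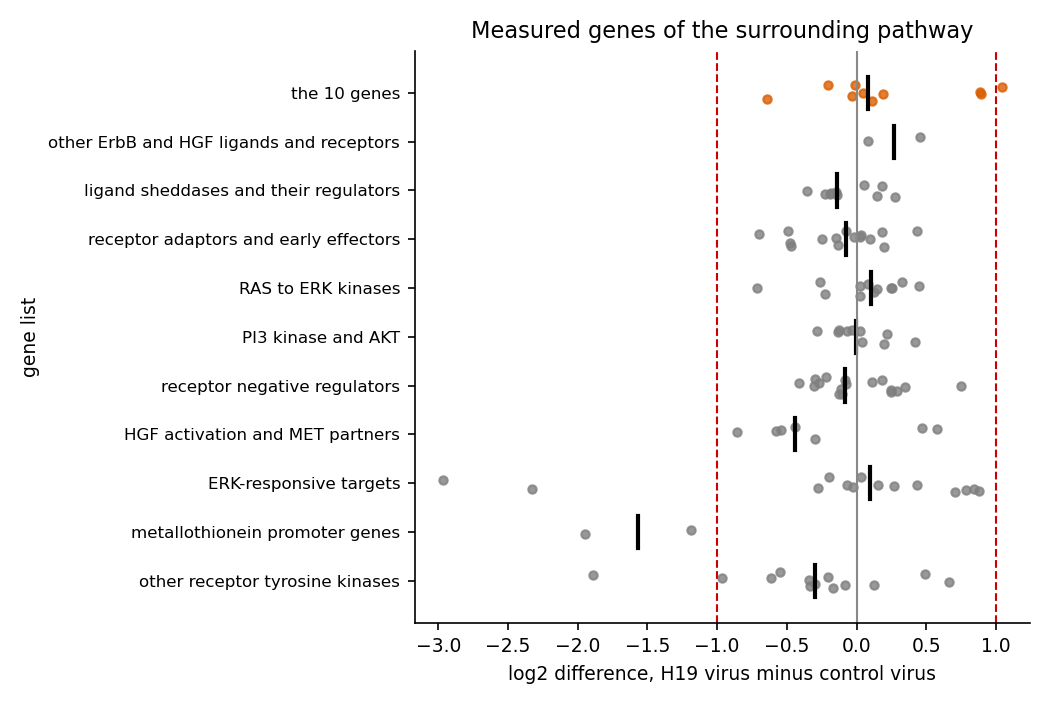
Log2 difference, the H19 virus minus the control virus library, of the 10 genes (orange) and of the measured genes of each pathway list (grey points, vertical jitter only), with black bars for medians and dashed lines at -1 and 1. Beyond the lower line lie Mt1, Mt2, Fos, Egr1 and Fgfr2, and beyond the upper line Areg alone, which 3 other scalings bring under it.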

How the data were processed

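Messenger RNA of 2 AML12 libraries was compared, with Over19 in the title read as H19 virus and Ctrl as control virus. CASAVA 1.4, TopHat2 and the build mm9 are named in the submitters' processing notes; no source used here names the program behind the FPKM or its use of strand. All levels were deposited as FPKM by the authors, as the file headers say. Each gene in the authors' deposited table of differences has a p-value and q-value. Of 21145 gene identifiers 21017 were found in GENCODE M21, whose GRCm38 positions are printed although the notes name mm9.

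Log2(FPKM + 1) was subtracted between libraries, with a pseudocount of 1, over genes with a mean of at least 1 FPKM, and called at 2-fold. The step of low values was sought between 0.025 and 0.065 FPKM times kb in genes with 1 transcript of over 3000 exonic bases, and values were not whole reads. The fold rule was tested on simulated data. Alternatives were pseudocounts of 0.1 and 0.01, no filter, at least 5 FPKM, 3 scalings, 1.5-fold and 3-fold rules and the per-library tables. Members and lists were chosen with earlier results of these data known. All members were named, and of each list the genes past the rule and the 4 of largest difference, apart from 2 genes that are not reported here. Upper quartiles were those of measured genes. Protein sequences were not used here. Labels name no separate cultures. Python 3.11.15, numpy 2.4.6 and pandas 2.3.3 were used.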

Additional observations from a re-analysis of the deposited data

How the results depend on the processing

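No paired analysis was possible because there is 1 library per group. Of 79 log2 differences of the members under alternative settings, 73 kept their sign and their side of the 2-fold rule. That count is no rate of stability. A filter on level cannot change the value of a member, and the per-library tables hold the same values, so those settings had to return the main result. The exceptions came from scaling. With the median of all genes set to 0, as TPM and with equal upper quartiles, Areg was at 0.9614, 0.9818 and 0.9265, under the rule, and Egfr at -0.0334, -0.0159 and -0.0659, so that 0 members were past the rule as higher. Over all measured genes the median was 0.08 as deposited. A 1.5-fold rule counted 3 members higher and 1 lower, and a 3-fold rule 0. Over all measured genes 133 were higher and 183 lower. These counts became 275 and 316 with a pseudocount of 0.1, 295 and 341 with 0.01, 86 and 113 at a mean of at least 5 FPKM, 1050 and 725 by the 1.5-fold rule, 11 and 42 by the 3-fold rule, 83 and 247 with equal upper quartiles and 192 and 346 as TPM. Of 80 medians of the lists 78 kept their sign. The medians of the RAS to ERK kinases and the ERK-responsive targets turned to -0.0091 and -0.0212 with equal upper quartiles. Of 100 counts of list genes past the rule 87 stayed within 1.5 times. The other receptor tyrosine kinases went from 1 to 2 with either pseudocount and with each of the 3 scalings, and the MET partners from 0 to 1 with a pseudocount of 0.01. Erbb3 has no value at a mean of at least 5 FPKM. FPKM without read totals allow no counting error, and 1 library per line leaves the spread between cultures unknown.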

Other observations

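Other receptor tyrosine kinases of the same cells were read beside Egfr and Met. Of 26 listed, 13 were measured, 3 higher and 10 lower, where 6877 of all measured genes were higher and 4797 lower. The median log2 difference of the 13 was -0.30, and 1 of them was past the 2-fold rule. This was Fgfr2, a fibroblast growth factor receptor of epithelial cells, at 10.9 and 2.22 FPKM. The collagen receptors went opposite ways, Ddr1, of epithelial cells, at 35.2 and 17.5 FPKM and Ddr2, of mesenchymal cells, at 16.9 and 27.3 FPKM. Ephb4 was at 13.4 and 8.45 FPKM. The authors' deposited table of differences lists Fgfr2, with a log2 ratio of -2.30 in that table, and Ddr1, with -1.01.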
